A study of Mus musculus with 15 samples.

Results

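Broad acetylated domains are here long stretches of chromatin under joined peaks of H3K27ac, the acetylation of histone H3 at lysine 27. The joined peaks leave no gap, but a single state may cover only part of a stretch. The domains described here were chosen by their peak positions. Overlapping and touching H3K27ac peaks of ESCs, D-EPSCs and L-EPSCs were joined into union regions, and a region was kept when it held a peak of every state and spanned at least 10 kb. This gave 1134 domains of 70360 union regions, which were 7.57% of the 14972 regions with a peak in every state. The values that selected them, namely presence in every state and union width, are given as a description only.

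ChIP-seq of H3K27ac and H3K4me1 comprised 15 samples, 2 for each mark in each state and an input for each state. ESCs were of the J1 line, which has a 129SV background, and were kept in serum with LIF and 2i, the GSK3 inhibitor CHIR99021 and the MEK inhibitor PD0325901. D-EPSCs were converted from ESCs in N2B27 and KSR with LIF, CHIR99021, dimethindene maleate and minocycline hydrochloride. L-EPSCs were converted from ESCs in KSR medium with LIF, CHIR99021, PD0325901, A-419259, XAV939, JNK inhibitor VIII and SB203580. All states shared LIF and CHIR99021, and all came from 1 parental line, so genotype did not vary. ESCs were grown on feeders or gelatin and EPSCs without feeders before the experiment. The data compared were 3 H3K27ac and 3 H3K4me1 peak lists, 1 per mark and state, which hold positions and no heights. No difference below therefore has a replicate check or a test, and read depth is unknown from peak positions. The whole H3K27ac lists covered 107.4 Mb in ESCs, while D-EPSCs had 44.4 Mb and L-EPSCs 34.3 Mb. A base outside a peak may carry the mark below the calling threshold, and fewer marked cells cannot be told apart from less mark per cell.

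H3K27ac is placed by the acetyltransferases p300 and CBP at active enhancers and promoters, whereas H3K4me1 marks enhancers whether or not they are active. Dense runs of active enhancers form broad acetylated stretches, often called super-enhancers, and in pluripotent cells these lie beside the genes of Oct4 (Pou5f1), Sox2, Nanog and other factors that hold the undifferentiated state. The mouse miR-290 cluster, the main miRNA family of ESCs, is another known site of this kind.

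The sequences below are those of a miRNA cluster, of joined factor letters and of gene starts in domains. The first set is the miR-290 cluster, whose 7 annotated miRNA genes (Mir290, Mir291a, Mir292, Mir291b, Mir293, Mir294 and Mir295) all lay in the domain at chr7:3198473-3222603 (mm9), on the plus strand, 27.1 kb from the nearest protein-coding start site, that of Nlrp12. The 3p mature forms of all but Mir292 are given 5′ to 3′ from RefSeq (GRCm38.p6), with the seed, bases 2 to 8, in capitals.
miR-291a-3p: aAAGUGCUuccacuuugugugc
miR-294-3p: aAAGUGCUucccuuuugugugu
miR-295-3p: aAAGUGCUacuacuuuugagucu
miR-291b-3p: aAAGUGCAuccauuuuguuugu
miR-290a-3p: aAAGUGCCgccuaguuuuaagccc
miR-293-3p: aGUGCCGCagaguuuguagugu

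The seed of miR-291a-3p, miR-294-3p and miR-295-3p was the same 7 bases. miR-291b-3p and miR-290a-3p shared the first 6 of these bases and differed in the last, and miR-293-3p had a seed of its own. All 7 miRNA genes of the cluster were matched by name, and they gave 13 mature sequences, 6 of them 3p forms. For Mir292 only a 5p form was matched, so its 3p seed was not compared. Across all domains, 30 of 1577 annotated miRNA genes lay in 21 domains, and the miR-290 domain held the most. Its H3K27ac differed little between the lists, as ESCs covered 24.1 kb, D-EPSCs 23.0 kb and L-EPSCs 22.4 kb. The mark lay in 1 ESC peak, 2 D-EPSC peaks and 1 L-EPSC peak.

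The second set shows where the joined letters of a Sox and an Oct site occurred in domains. Sox2 and Oct4 are known to bind such letters side by side. The genome was searched on both strands for CATTGT or CTTTGT, then 1 base of any kind, then ATGCAAA, letters that were chosen after the values were seen. They occurred 4 times in domains, in 4 domains, and 3 of these sites are given with 20 bases on each side (mm9, strand as stated, the letters in capitals).
Zfp64 domain, chr2:168785047-168785100, minus strand: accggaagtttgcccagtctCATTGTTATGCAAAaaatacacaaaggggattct
Nanog domain, chr6:122657412-122657465, minus strand: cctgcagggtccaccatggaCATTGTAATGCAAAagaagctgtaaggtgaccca
Zfp219 domain, chr14:52635959-52636012, plus strand: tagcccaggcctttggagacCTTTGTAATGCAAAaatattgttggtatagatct

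The Zfp64 site lay under H3K27ac in every state. The sites in the Nanog and Zfp219 domains lay under H3K27ac in ESCs and L-EPSCs and not in D-EPSCs. Over all 4 sites, ESCs and L-EPSCs covered 4 and D-EPSCs covered 2, beside 97.2%, 51.2% and 54.6% of all domain bases in that order, and 4 sites are too few to read a difference from. The letters were also found in 330 of 8518777 windows of 300 bases across the genome, so a match is no site by itself.

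The third set is the start region of 4 pluripotency genes with their start sites in domains, 250 bases before to 50 after the start, on the plus strand of mm9. They are shown because the covered share of this stretch differed between states at Nanog, Sox2 and Tcfcp2l1 (the older symbol of Tfcp2l1) and not at Pou5f1. Capitals mark the letters GGGNGTGG of a Krüppel-like factor site on either strand and, at Nanog, the joined Sox and Oct letters of the second set. The Sox2 stretch held none of these letters.
Nanog, chr6:122657257-122657556: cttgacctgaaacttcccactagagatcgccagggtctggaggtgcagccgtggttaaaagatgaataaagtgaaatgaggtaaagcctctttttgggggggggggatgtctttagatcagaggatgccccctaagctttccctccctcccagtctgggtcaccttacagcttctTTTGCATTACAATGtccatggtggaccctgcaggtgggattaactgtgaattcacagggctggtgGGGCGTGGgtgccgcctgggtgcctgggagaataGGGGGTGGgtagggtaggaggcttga
Sox2, chr3:34548677-34548976: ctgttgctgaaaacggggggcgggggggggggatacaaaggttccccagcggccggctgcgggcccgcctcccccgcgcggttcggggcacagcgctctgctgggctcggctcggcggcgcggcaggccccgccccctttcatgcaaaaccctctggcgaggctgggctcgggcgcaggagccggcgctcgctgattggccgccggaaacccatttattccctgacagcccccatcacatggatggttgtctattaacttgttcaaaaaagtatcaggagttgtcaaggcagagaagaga
Tcfcp2l1, chr1:120524272-120524571: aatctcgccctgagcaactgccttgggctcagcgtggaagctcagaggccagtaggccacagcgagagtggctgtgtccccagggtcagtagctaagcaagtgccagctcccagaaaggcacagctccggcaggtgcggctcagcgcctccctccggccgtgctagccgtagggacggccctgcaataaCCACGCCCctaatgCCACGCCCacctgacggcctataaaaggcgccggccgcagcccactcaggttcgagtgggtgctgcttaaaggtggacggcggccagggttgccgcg
Pou5f1, chr17:35642732-35643031: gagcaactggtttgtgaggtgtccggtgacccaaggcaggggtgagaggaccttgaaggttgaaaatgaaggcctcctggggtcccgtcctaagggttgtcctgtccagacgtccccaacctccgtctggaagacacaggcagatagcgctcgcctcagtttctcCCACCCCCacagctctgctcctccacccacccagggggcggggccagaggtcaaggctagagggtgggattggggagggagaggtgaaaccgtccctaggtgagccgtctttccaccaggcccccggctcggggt

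The Nanog stretch was covered to 100% in ESCs and L-EPSCs and to 0% in D-EPSCs. The Sox2 stretch was covered to 0% (ESCs), 2% (D-EPSCs) and 100% (L-EPSCs), so at Sox2 the ESC peaks left out the start itself. The Tcfcp2l1 stretch was covered to 33.7% in ESCs, while D-EPSCs had 0% and L-EPSCs 100%, and the Pou5f1 stretch to 100% in every state. The genes were chosen for these differences, and the same stretch of Klf2, Dppa5a, Nodal and Tet2 was covered to 100% in D-EPSCs and that of Tbx3 to 75%. That each of the 4 domains held a D-EPSC peak follows from the rule. Pou5f1 encodes Oct4, Nanog a homeodomain factor and Tcfcp2l1 a factor of naive pluripotency, the ground state of the inner cell mass.

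The domains spanned 17.6 Mb in all, from 10.0 kb to 50.0 kb with a median of 13.4 kb. Of them, 441 were at least 15 kb wide, 178 at least 20 kb, 42 at least 30 kb and 11 at least 40 kb. ESC peaks covered 17.1 Mb (97.2% of the width), D-EPSC peaks 9.59 Mb (54.6%) and L-EPSC peaks 8.99 Mb (51.2%). Within the domains, D-EPSCs thus covered 56.2 bases and L-EPSCs 52.7 bases for every 100 ESC bases. Over the whole lists the same ratios were 41.4 and 31.9, and in the 13838 shared regions under 10 kb they were 63.2 and 52.7. Compared with shorter shared regions, the domains were therefore lower in D-EPSCs and alike in L-EPSCs. The rule favours long ESC peaks, since 987 of 1134 domains held an ESC peak that was at least 10 kb long by itself.

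**Figure D1:**
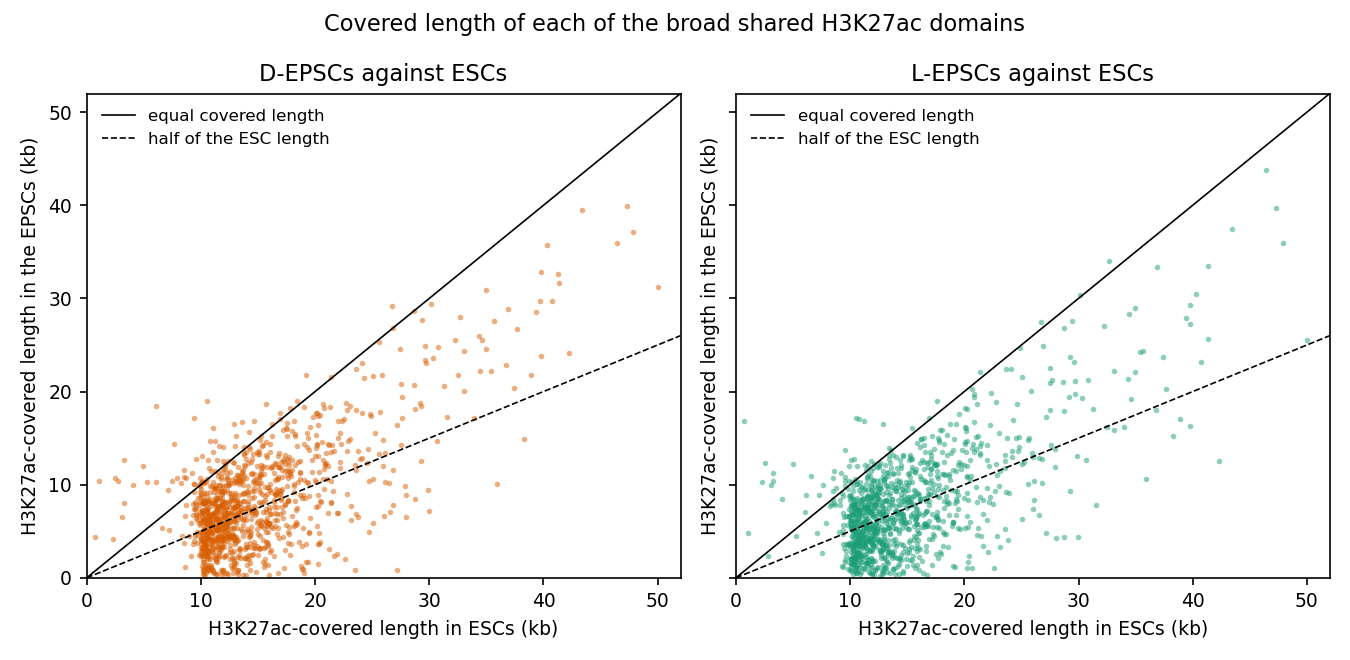
Each point is 1 of the 1134 domains. The x axis is its H3K27ac-covered length in ESCs and the y axis the covered length in D-EPSCs (left) or L-EPSCs (right), both in kb. The solid line is equal length and the dashed line 50% of the ESC length. Most points lie below the solid line, and 494 (D-EPSCs) and 554 (L-EPSCs) lie on or below the dashed line.

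A typical domain was 1 long peak in ESCs and a row of shorter peaks in EPSCs. ESCs had a mean of 1.28 peaks per domain, D-EPSCs 2.97 and L-EPSCs 3.17, and the most peaks in a domain were 7, 11 and 16 in that order. A domain held only 1 peak in 908 cases (ESCs), 194 cases (D-EPSCs) and 172 cases (L-EPSCs). The longest peak of a domain had a median of 12.7 kb (ESCs), 4.87 kb (D-EPSCs) and 4.399 kb (L-EPSCs). Peaks covered the domain from end to end in 683 ESC domains (60.2%), but in only 16 D-EPSC and 6 L-EPSC domains, and in shared regions under 10 kb in 41.1%, 9.11% and 3.16%. In the shorter regions, D-EPSCs had a mean of 1.17 peaks per region. A shorter region has less room for several peaks, so this difference is not read as a trait of the domains.

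Bases under a peak in every state, the common core, made up 7.03 Mb (40.1% of the domain width), and bases under an ESC peak only made up 6.20 Mb (35.3%). Bases under an EPSC peak and not an ESC peak made up 0.495 Mb (2.82%), against 10.7% in shared regions under 10 kb. The core of a domain had a median of 5.20 kb, and 13 domains had no base in common although each list had a peak there. When each domain was divided into 10 equal parts, D-EPSC coverage was 29.8% and 32.9% in the outermost parts and 65.3% at its highest, in the sixth part. L-EPSC coverage was 26.7% and 28.9% at the ends and 61.8% at its highest, while ESC coverage stayed between 93.8% and 98.2%. The ends of a domain are ends of its joined peaks, mostly of 1 long ESC peak, so lower EPSC coverage at the ends follows in part from the rule.

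**Figure D2:**
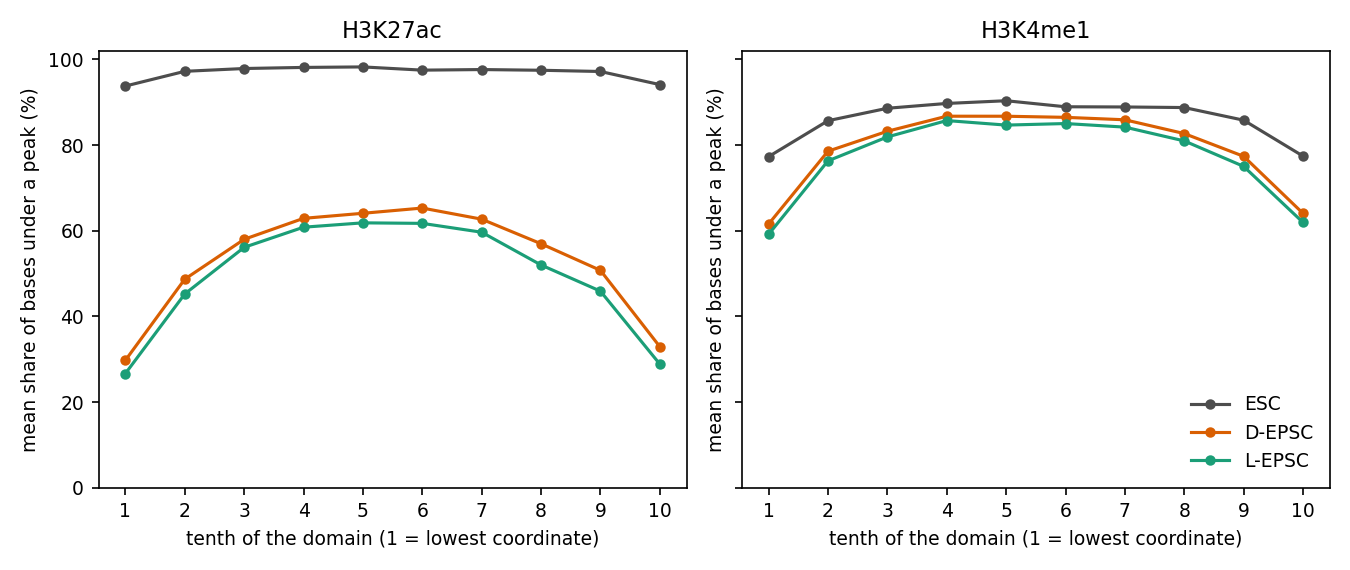
Mean share of bases under a peak, in percent, across 10 equal parts of the 1134 domains from the lowest to the highest coordinate, for H3K27ac (left) and H3K4me1 (right) in ESCs, D-EPSCs and L-EPSCs. EPSC H3K27ac is at 65.3% (D-EPSCs) and 61.8% (L-EPSCs) in the middle and at 29.8% and 26.7% in the lowest part. The ends differ less from the middle in H3K4me1.

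Covered length was then compared domain by domain. D-EPSCs covered at most 50% of the ESC bases in 494 domains (43.6%), where 33.8% of all regions with a peak in every state did so. L-EPSCs did so in 554 domains (48.9%), against 45.5% of those regions. With lists shortened to equal covered bases the order of the EPSCs turned, with 490 domains in D-EPSCs and 480 for L-EPSCs. In 381 domains both EPSCs were at or below 50%, and in 467 both were above it. The median domain kept 54.6% (D-EPSCs) and 51.2% (L-EPSCs) of the ESC length. The 10th and 90th percentiles were 20.1% and 90.2% in D-EPSCs and 16.6% and 87.3% in L-EPSCs, so domains differed widely among themselves. More bases than in ESCs were covered in 68 domains (5.996%) in D-EPSCs, against 25.1% of all shared regions, and in 48 (4.23%) in L-EPSCs, against 16.9%. Both EPSCs exceeded ESCs in 31 domains.

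The widest domains kept most of their length. The 42 domains of at least 30 kb had 70.6 D-EPSC and 64.7 L-EPSC bases per 100 ESC bases, and the 693 domains under 15 kb had 52.9 and 49.6. Width was measured on the same peaks that the rule used. Among the 20 widest, D-EPSCs kept 38.8% to 91.0% of the ESC length (median 75.7%) and L-EPSCs 29.6% to 104% (median 69.8%). At most 50% was kept in 1 of the 20 in D-EPSCs and in 4 in L-EPSCs.

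**Figure D3:**
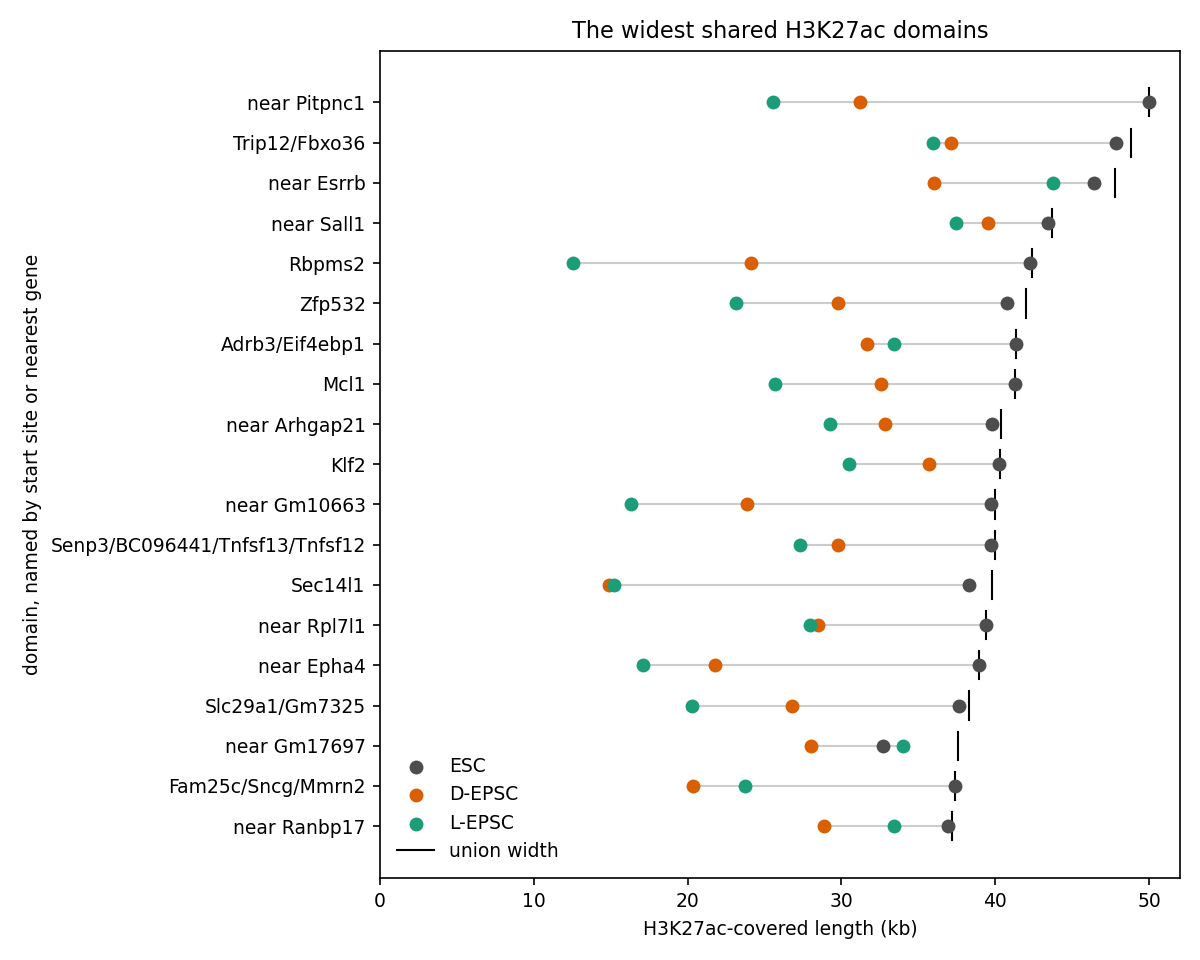
H3K27ac-covered length in kb (x axis) of 19 of the 20 widest domains (y axis, widest at the top) in ESCs, D-EPSCs and L-EPSCs, with the union width as a vertical line. ESC points lie at or near the union width, except in the domain near Gm17697, and the D-EPSC point lies right of the L-EPSC point in 13 of 19 domains.

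The widest domain of all lay in an intron of Pitpnc1, which encodes a lipid transfer protein, at chr11:107266037-107316039. It was 50.0 kb of 1 unbroken peak in ESCs, 31.2 kb in 11 peaks in D-EPSCs and 25.5 kb in 16 peaks in L-EPSCs. The domain at chr1:84832901-84881732 held the start sites of Trip12, a ubiquitin ligase gene, and Fbxo36, and covered 47.9 kb in ESCs, while D-EPSCs had 37.1 kb and L-EPSCs 35.9 kb. Both EPSCs kept over 75% of the ESC length there. The domain of Mcl1, an inhibitor of apoptosis (chr3:95443144-95484442), covered 41.3 kb, 32.6 kb and 25.7 kb in that order. The Rbpms2 domain, of an RNA-binding protein gene, kept 57.1% in D-EPSCs and only 29.6% in L-EPSCs, and that of Sec14l1 kept 38.8% and 39.8%.

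Transcription factor genes of pluripotency stood beside several of the widest domains. The domain over the 3′ part of Esrrb, an orphan nuclear receptor gene of naive pluripotency, lay at chr12:87807527-87855345, 105 kb from the annotated Esrrb start site. It covered 46.4 kb (ESCs), 35.99 kb (D-EPSCs) and 43.8 kb (L-EPSCs), so L-EPSCs kept 94.3% and D-EPSCs 77.6%. At Klf2 (chr8:74840253-74880580), which encodes a Krüppel-like factor, 40.3 kb, 35.7 kb and 30.5 kb were covered, in 1, 5 and 9 peaks. A domain 15.1 kb from the start of Sall1, a zinc finger gene, covered 43.4 kb, 39.5 kb and 37.4 kb. Domains whose nearest start sites were those of Klf5 (25.01 kb away) and Klf4 (49.3 kb away) kept 73.9% and 66.96% in D-EPSCs and 55.6% and 49.7% in L-EPSCs. The nearest start site is a position on the map and does not assign a domain to a gene.

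Of 39 genes on lists of pluripotency factors and pluripotency-associated genes, 18 had their start site in a domain, against 1.71% of all 22350 protein-coding genes. They were 9 of 22 core and naive factors and 9 of 17 associated genes. Their 18 domains kept 5.25% to 102.2% of the ESC length in D-EPSCs (median 68.9%) and 21.8% to 96.4% in L-EPSCs (median 71.2%), where the medians over all domains were 54.6% and 51.2%. D-EPSCs kept at most 50% in 3 of the 18, and L-EPSCs in 2. The lists were chosen with earlier results of these data known.

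Among the 9 core and naive factors, D-EPSCs kept less length than L-EPSCs at 7, with medians of 63.4% and 75.1%, whereas D-EPSCs covered more than L-EPSCs in 644 of all 1134 domains (56.8%). Pou5f1 (chr17:35630605-35647426) covered 16.5 kb in ESCs, while D-EPSCs had 12.3 kb and L-EPSCs 12.4 kb, with the EPSC lists nearly alike. Nanog (chr6:122647959-122660956) covered 13.0 kb, 8.94 kb and 10.5 kb. Sox2 (chr3:34544038-34556981) covered 11.98 kb, 7.13 kb and 9.02 kb. At both genes D-EPSCs were the lowest of the lists. With lists of equal covered bases, the Sox2 domain was at 87.3% (D-EPSCs) and 119% (L-EPSCs) of the ESC length. Those lists held the widest 3726 of 64342 ESC peaks and all 26966 L-EPSC peaks. The ESC length there thus leaves out shorter ESC peaks, and the 119% is not read as more H3K27ac in L-EPSCs. Nr5a2, a nuclear receptor gene, kept 60.1% in D-EPSCs and 67.4% in L-EPSCs, and Sall1 kept 63.4% and 74.8% over its own start. Klf2 and Sall4 were the exceptions, with 88.7% and 86.0% in D-EPSCs and 75.7% and 75.6% in L-EPSCs.

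Tbx3 and Tcfcp2l1 had the lowest D-EPSC values of the core list, and Tcfcp2l1 also had the lowest L-EPSC value. The Tbx3 domain, of a T-box factor gene (chr5:120105136-120124150), covered 18.9 kb (ESCs), 0.99 kb (D-EPSCs) and 13.4 kb (L-EPSCs). D-EPSCs had only 1 short peak there, in front of the start site. The Tcfcp2l1 start domain (chr1:120517907-120529194) covered 10.5 kb, 1.40 kb and 2.28 kb and was low in both EPSCs. The next domain, inside the same gene at chr1:120534780-120555767, covered 21.0 kb, 13.4 kb and 13.9 kb, so neighbouring domains of a gene kept different shares of their length.

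The 9 associated genes included ligands and their helpers. Fgf4, a growth factor gene of ESCs, covered 24.8 kb in ESCs, while D-EPSCs had 17.6 kb and L-EPSCs 14.1 kb. Tdgf1, which encodes a Nodal co-receptor, covered 23.1 kb, 18.4 kb and 15.6 kb. Dppa5a had the highest L-EPSC value of the 18, with 12.5 kb, 11.3 kb and 12.1 kb, which became 67.9% of the ESC length in L-EPSCs when peaks were joined over gaps of 1 kb. Jarid2, which encodes a partner of Polycomb repressive complex 2, had the highest D-EPSC value, with 16.2 kb, 16.5 kb and 10.7 kb, and was just below ESCs, at 98.0%, with joined gaps. Phc1, a Polycomb gene, kept 83.6% in D-EPSCs and 61.4% in L-EPSCs. Dppa2 kept 65.9% and 71.4%, and Fbxo15, a target gene of Oct4 and Sox2, kept 69.0% and 76.4%. Spp1, the osteopontin gene, kept 45.5% and 50.1%, and Upp1, which encodes uridine phosphorylase, kept 53.4% and 34.8%.

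**Figure D4:**
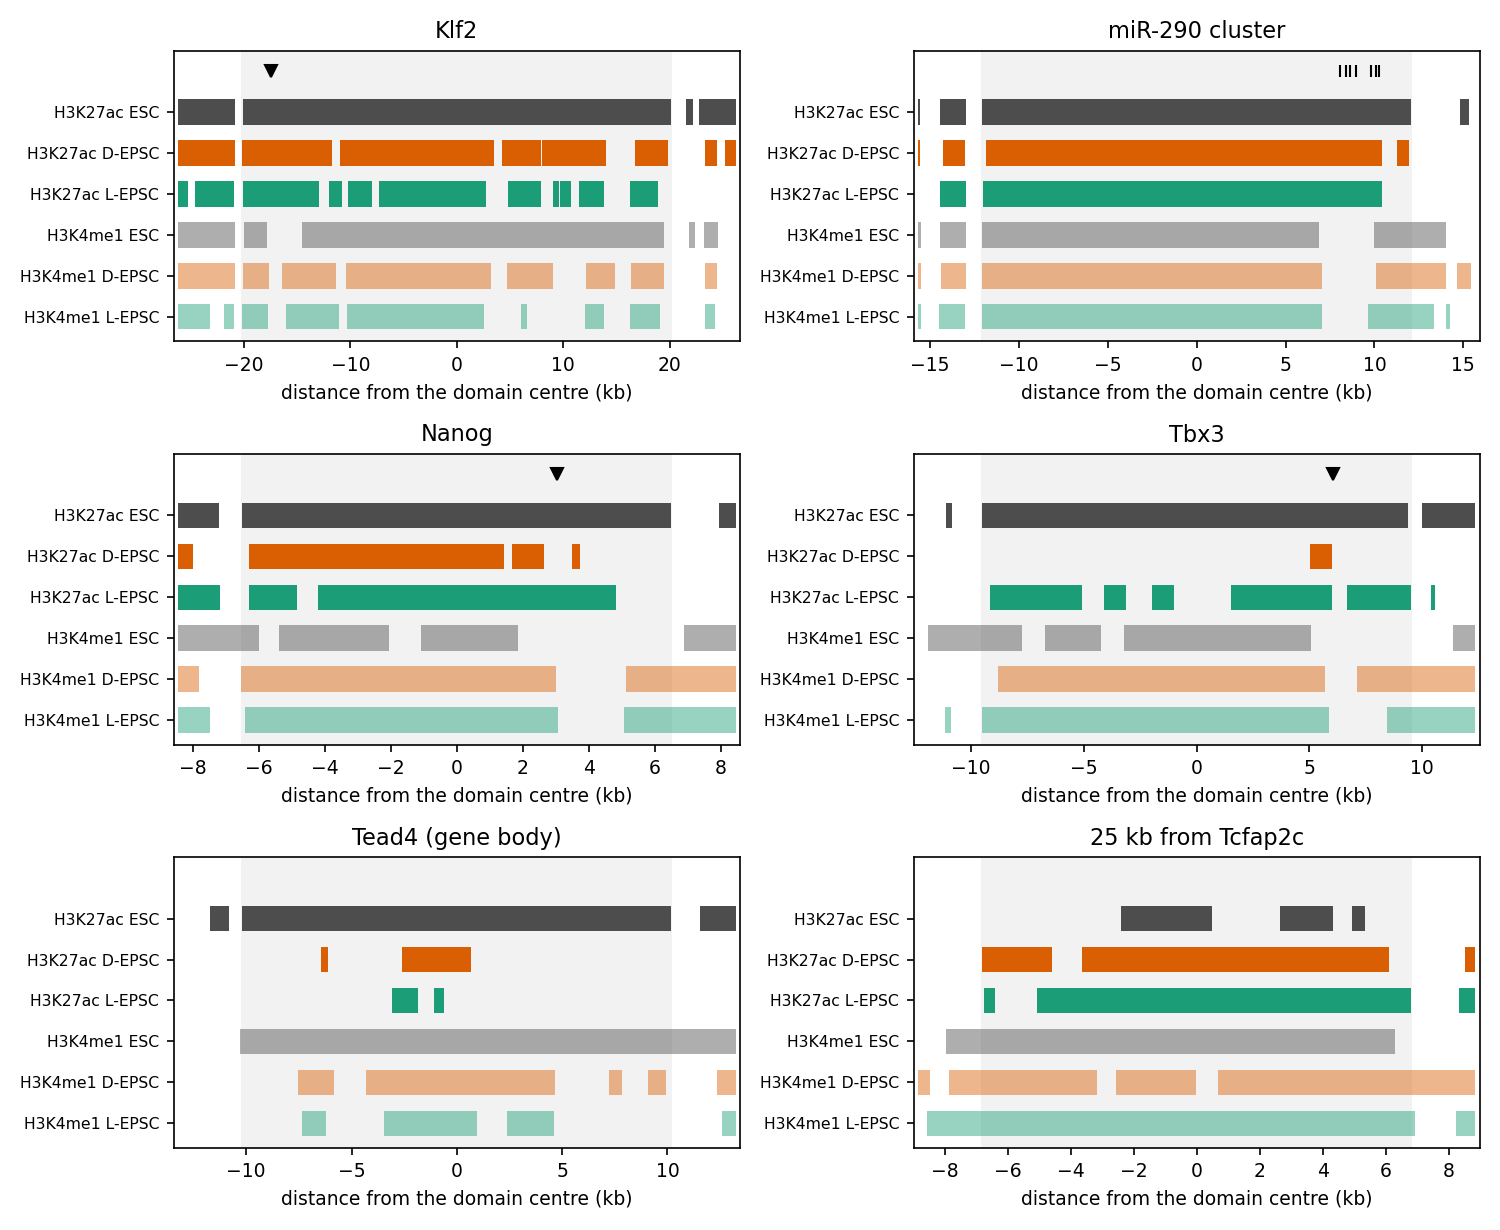
Peak positions of both marks in 6 domains, with distance from the domain centre in kb on the x axis and 1 row per mark and state. The grey band is the domain, the triangle a protein-coding start site and the short lines the 7 miRNA genes of the miR-290 cluster. Bars are peaks. H3K27ac is 1 peak across the domain in ESCs in every panel but the last, where it covers 4.96 kb (ESCs), 11.98 kb (D-EPSCs) and 12.2 kb (L-EPSCs).

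Signalling genes were less often in domains than the pluripotency lists, but above the 1.71% of all genes. Of 20 genes of LIF, BMP, Nodal and Wnt signalling, 2 (10%) had their start in a domain. Nodal, a TGF-β family ligand, kept 58.9% in D-EPSCs and 46.7% in L-EPSCs, and Lefty2, its secreted inhibitor, kept 47.6% and 31.2%. Of 12 feedback genes of the ERK pathway, 2 (16.7%) had it there. Ier2, an immediate early gene, covered 15.7 kb, 14.5 kb and 11.6 kb, and Spred2, an inhibitor of Ras and ERK signalling, covered 10.1 kb, 10.3 kb and 7.63 kb. A second domain inside Spred2 (chr11:19846724-19866835) covered 19.4 kb in ESCs, while D-EPSCs had 1.72 kb and L-EPSCs 7.36 kb, and another (chr11:19882682-19895872) covered 13.2 kb, 8.14 kb and 7.10 kb. The length over the Spred2 start depended on the processing, as it became 67.6% and 42.6% of the ESC length with joined gaps and 187% and 138% with lists of equal covered bases.

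Of 16 chromatin regulators, Tet1 and Tet2, whose proteins oxidise methylated cytosine, had their start in a domain. Tet1 covered 27.1 kb, 16.4 kb and 17.3 kb, and Tet2 covered 14.2 kb, 14.1 kb and 11.2 kb. With lists of equal covered bases, from which shorter ESC peaks were dropped, Tet2 was at 192% and 153% of the ESC length left. With joined gaps D-EPSCs were at 74.8%. Of 16 housekeeping and translation genes, 4 did so, and they kept a median of 49.3% in D-EPSCs and 39.8% in L-EPSCs. Gapdh, a glycolysis gene, kept 47.2% and 35.6%, the chaperone gene Hsp90ab1 46.1% and 29.8%, and the cyclophilin gene Ppia 51.4% and 44.0%. Hspa8, another chaperone gene, kept 98.8% and 82.4%. D-EPSCs were above L-EPSCs at all 4.

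Of the 22 core and naive starts, inside domains or not, H3K27ac lay at 12 in ESCs, while D-EPSCs had it at 7 and L-EPSCs at 11. The starts of Pou5f1, Klf4 and Zfp42 carried it in every state, those of Nanog and Prdm14 in ESCs and L-EPSCs, those of Nr5a2, Tbx3 and Tcl1 in ESCs alone, and those of Sox2 and Tfcp2l1 in L-EPSCs alone. The Esrrb start carried it in none, although a domain lay over its 3′ part. No start site of 13 formative and primed epiblast genes, 10 trophoblast genes, 10 primitive endoderm genes or 12 feeder fibroblast genes lay in a domain, where 1.71% of all genes did, so a count of 0 in lists of this size is near the background. None of the 12 fibroblast starts lay under H3K27ac at the first base in any state. The same held for the starts of Klf5 and Zfp281, which are on the core and naive list, and of Esrrb. This reading therefore cannot show whether the fibroblast genes carried H3K27ac outside that base. Of the trophoblast genes, Tead4, a factor gene needed for trophectoderm, had a domain in its body (chr6:128222122-128242483). It covered 20.4 kb (ESCs), 3.59 kb (D-EPSCs) and 1.72 kb (L-EPSCs). H3K4me1 covered 100%, 59.7% and 38.3% of it in that order. The domain labelled by Tcfap2c, the older symbol of the AP-2 factor gene Tfap2c, went the other way. It lay 25.04 kb from that start site, at chr2:172336443-172350057, and covered 4.96 kb in ESCs, while D-EPSCs had 11.98 kb and L-EPSCs 12.2 kb.

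The domains with the least EPSC H3K27ac relative to ESCs were picked by the D-EPSC share, the L-EPSC share or both, and each of those named next was 1 long peak in ESCs. The domain just beside the start of Ciita, the gene of the activator of MHC class II genes (chr16:10463483-10480210), covered 16.7 kb (ESCs), 0.469 kb (D-EPSCs) and 0.298 kb (L-EPSCs). The domain nearest to Gli2, a Hedgehog pathway factor gene 88.6 kb away, covered 11.9 kb, 0.346 kb and 0.497 kb. The domain over parts of Med20 and Usp49, nearest to the start of Tomm6 (chr17:47798036-47814025), had the lowest D-EPSC share of all domains, with 15.99 kb, 0.26 kb and 0.838 kb. The lowest L-EPSC share was that of a domain over Bcl7b, nearest to the start of Baz1b, with 12.6 kb, 2.07 kb and 0.2 kb. An intron of Tcf7l1, which encodes a repressor of Wnt target genes, held a domain with 14.0 kb, 0.265 kb and 3.40 kb. These extremes were selected on the values shown. A domain 68.8 kb from the start of Sall4 (chr2:168662240-168685953), not one of the extremes and in 2 ESC peaks, covered 23.5 kb, 0.81 kb and 5.29 kb, while the domain over the Sall4 start kept 86.0% and 75.6%.

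The domains with the most H3K27ac in EPSCs relative to ESCs were picked in the same way. A domain over Enpp6, which encodes a choline phosphodiesterase (chr8:48135971-48152786), covered 0.696 kb in ESCs, while D-EPSCs had 4.34 kb and L-EPSCs 16.8 kb, the largest L-EPSC ratio. A domain 35.7 kb from the start of Socs2, a suppressor of cytokine signalling (chr10:94915519-94925869), covered 1.08 kb, 10.4 kb and 4.79 kb, the largest D-EPSC ratio. The 2 neighbouring domains nearest to Plekhb2, 377 kb and 364 kb away, covered 2.52 kb and 3.25 kb in ESCs, 10.8 kb and 8.04 kb in D-EPSCs, and 12.3 kb and 10.4 kb in L-EPSCs. The domain of 4930524B15Rik covered 3.24 kb, 12.6 kb and 11.3 kb. These exceeded ESCs in both EPSCs by the way they were picked. A domain near Svil, picked by the D-EPSC ratio, covered 2.77 kb, 10.4 kb and 2.32 kb, so L-EPSCs were below ESCs there.

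D-EPSCs and L-EPSCs were also compared with each other. L-EPSCs covered 93.8 bases per 100 D-EPSC bases in domains and 83.4 in shared regions under 10 kb. D-EPSCs covered at least 2 times the L-EPSC length in 127 domains (11.2%), where 21.2% of all regions with a peak in every state did so. L-EPSCs covered at least 2 times the D-EPSC length in 82 domains (7.23%), close to the 7.73% of those regions. At the extremes, which were picked after their values were seen, an intron of Ppp1r9a held a domain of 9.38 kb (ESCs), 17.2 kb (D-EPSCs) and 1.17 kb (L-EPSCs). Il17rd, which encodes an inhibitor of FGF signalling, covered 11.7 kb, 7.72 kb and 0.628 kb. A domain in Mta3, a gene of the NuRD deacetylase complex, covered 14.6 kb, 7.74 kb and 0.545 kb. On the other side were Tbx3 and a domain in Rusc2, which covered 13.3 kb, 0.846 kb and 11.4 kb.

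H3K4me1 was not used to choose the domains, and every one of the 1134 held H3K4me1 in every state. Wide regions have more room for a peak, so this count is not read as a trait of the domains. ESC peaks of this mark covered 86.6% of the domain width, D-EPSC peaks 80.0% and L-EPSC peaks 78.1%. The whole H3K4me1 lists covered 221.1 Mb in ESCs, while D-EPSCs had 187.5 Mb and L-EPSCs 173.1 Mb. That is 84.8 and 78.3 bases per 100 ESC bases, so the lists as a whole were also lower in EPSCs. In shared regions under 10 kb the mark covered 71.2%, 71.7% and 72.1%. A lower share in EPSCs was thus seen in the domains and not in the shorter regions. The rule favours long ESC H3K27ac peaks, so the higher ESC share of H3K4me1 cannot be taken as independent of it. How far the difference follows from the rule was not tested. The share was higher than in ESCs in 378 domains (33.3%) in D-EPSCs and in 348 (30.7%) in L-EPSCs. Among the 303 domains with a protein-coding start site it was higher in 173 (57.1%) for D-EPSCs and 151 (49.8%) for L-EPSCs, and among the 18 over start sites of the pluripotency lists in 14 and 15. The Nanog domain had 52.2% in ESCs, while D-EPSCs had 83.5% and L-EPSCs 83.8%, and that of Tbx3 66.2%, 88.8% and 86.6%. The Pou5f1 domain had 79.4%, 93.9% and 88.2%. The Klf2 domain went the other way, with 89.6%, 77.5% and 63.3%.

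Bases under an ESC H3K27ac peak were divided into those kept, which also lay under a peak of an EPSC, and those lost, which did not. D-EPSCs lost 7.85 Mb of them and kept 9.21 Mb. Of the lost bases 66.8% lay under H3K4me1 in D-EPSCs, and of the kept bases 92.0%. In ESCs the same bases were marked alike, 87.3% and 87.9%. L-EPSCs lost 8.38 Mb, of which 63.3% lay under their own H3K4me1, and kept 8.68 Mb, of which 92.8% did, with 87.7% and 87.6% in ESCs. Most lost bases thus still lay under H3K4me1 in EPSCs. In shared regions under 10 kb the shares were 67.6% of lost and 78.3% of kept bases in D-EPSCs, and 65.5% and 81.8% in L-EPSCs, so the lost bases were marked about as often there and the kept bases less often.

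**Figure D5:**
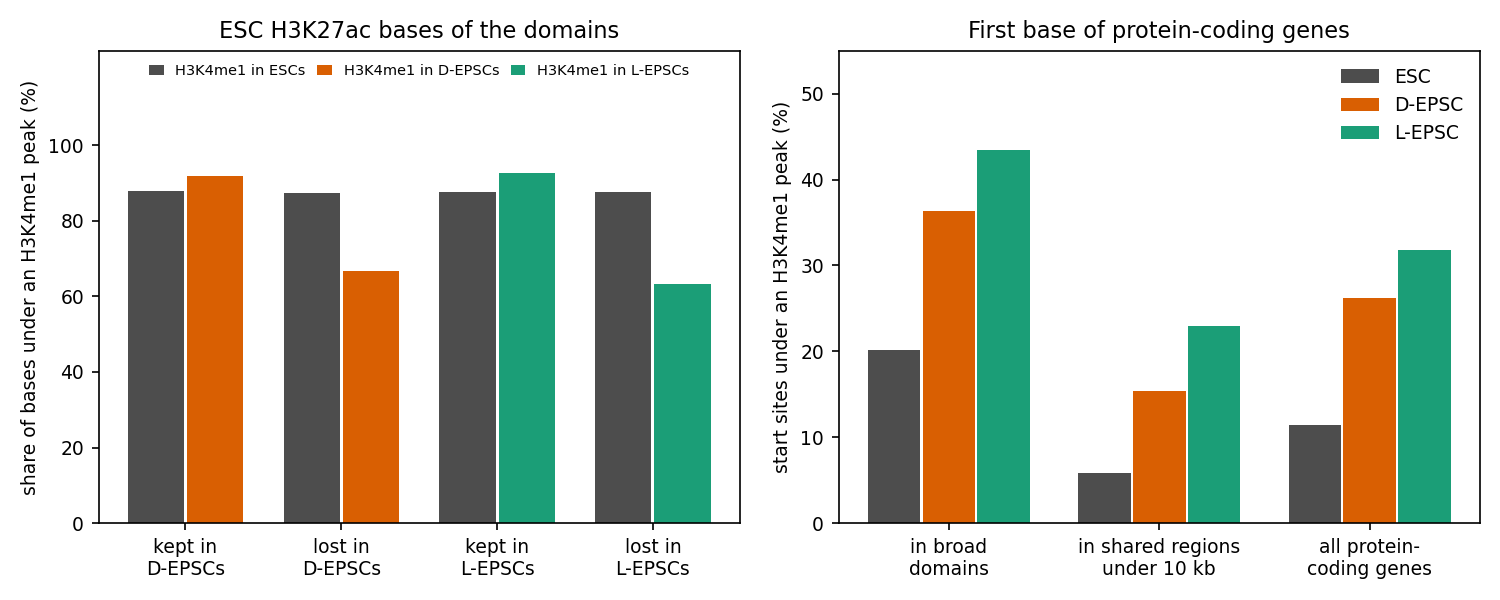
Left, share (y axis, percent) of the ESC-acetylated bases of the domains that lay under an H3K4me1 peak in ESCs and in the EPSC named, for bases kept or lost in that EPSC. Right, share (y axis, percent) of protein-coding start sites whose first base lay under H3K4me1 in each state, for 382 start sites in domains, 4487 in shared regions under 10 kb and all 22350. Lost bases were at 66.8% and 63.3% in EPSCs and at 87.3% and 87.7% in ESCs, and start sites in domains were at 20.2% in ESCs and 43.5% in L-EPSCs.

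A protein-coding start site lay in 303 domains (26.7%), against 28.2% of shared regions under 10 kb, and 53 domains held more than 1 of them, up to 9. The other 831 domains comprised 307 over an exon, 163 in introns only and 361 outside protein-coding genes. Their median distance to the nearest start site was 22.5 kb, and 24.7 kb in the shorter regions. Either kind kept a similar H3K27ac-covered length, with 59.4 D-EPSC and 54.8 L-EPSC bases per 100 ESC bases where a start site was held and 54.8 and 51.8 where none was. In the shorter regions the gap was wider in D-EPSCs, with 70.96 and 60.8.

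The 382 start sites in domains were then read at their first base. H3K27ac covered 88.2% (ESCs), 84.6% (D-EPSCs) and 78.8% (L-EPSCs) of them, and 65.7% in every state. In shorter shared regions the shares were 76.9%, 88.4% and 71.3%, and over all genes 21.5%, 24.4% and 17.4%, so D-EPSCs were highest there and ESCs in domains. H3K4me1 covered 20.2%, 36.4% and 43.5% in that order, while it covered 5.82%, 15.4% and 23.0% of the 4487 start sites in shorter shared regions and 11.4%, 26.2% and 31.8% of all 22350. H3K4me1 lay in both EPSCs and not ESCs at 60 start sites in domains (15.7%), close to the 14.6% of all start sites, and in ESCs and neither EPSC at 7 (1.83%), against 1.12%. The H3K4me1 share was thus lowest in ESCs and highest in L-EPSCs in each class, and highest in domains.

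The sequence of the domains was compared with that of shorter shared regions. Domains had 46.5% GC and 1.32 CpG per 100 bases, and shared regions under 10 kb had 47.8% and 1.99, against 41.8% and 0.834 over the genome. Within domains, the common core had 47.4% GC and 1.53 CpG per 100 bases, and bases acetylated in ESCs only had 45.7% and 1.102. Windows of 300 bases were searched on both strands for letters of known factors. AAGGTCA, the letters of Esrrb and Nr5a2, were in 8.57% of 20080 core windows, 6.21% of 17121 ESC-only windows, 6.98% of windows in shorter shared regions and 5.60% of the genome. GGGNGTGG, of Krüppel-like factors, was in 13.5%, 10.9%, 12.3% and 6.89%. Both were thus more frequent in the core than in the parts seen in ESCs only. The Oct letters ATGCAAAT were in 1.64%, 1.55%, 1.54% and 2.62%, and the Sox letters CATTGT in 14.1%, 14.1%, 13.9% and 18.3%. GGAATG, of Tead factors, was in 15.8%, 14.6%, 15.2% and 15.9%, and TGACATCA, of AP-1 and CREB type factors, in 1.27%, 1.49%, 1.22% and 1.53%. None of these 4 differed as much between the core and the ESC-only parts.

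In the promoters of the 382 genes with a start in a domain, 250 bases before to 50 after the start, ATGCAAAT was found in 3.40% against 1.73% of all 22350, and GGGNGTGG in 24.1% against 18.8%. For ATGCAAAT, 3.40% is 13 promoters. Hist1 genes made up 31 of the 382, and matches were not counted without them. AAGGTCA was in 3.93% and 3.92%, CATTGT in 9.16% and 10.6%, GGAATG in 11.3% and 13.4%, and TGACATCA in 1.83% and 3.01%. The joined letters at Nanog lay 75 bases before the start, with GGGNGTGG 10 bases before and 24 bases after it. A match is a description of letters only.

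The width limit divided similar regions. Just inside it, the domain nearest to Gsdmc spanned 10.0 kb and covered 10.0 kb (ESCs), 4.14 kb (D-EPSCs) and 3.36 kb (L-EPSCs), that nearest to Fam53a covered 9.58 kb, 6.45 kb and 9.86 kb, and that nearest to Erv3 covered 9.84 kb, 6.67 kb and 3.51 kb. Just outside it, the region nearest to Hace1 covered 9.995 kb, 6.87 kb and 1.65 kb, that nearest to Grhl3 covered 9.994 kb, 6.48 kb and 5.14 kb, and that nearest to Bcar3 covered 9.25 kb, 6.78 kb and 6.99 kb.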

How the data were processed

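ChIP-seq reads of H3K4me1 and H3K27ac were processed by the authors, who aligned them to mm9 with bowtie2, sorted them with SAMtools and ran MACS2 in broad mode with the input as control. The labels also name FastQC, Trim Galore, cutadapt and HOMER. Peak thresholds, and whether the samples of a state were pooled, are not given in the sources used here. The deposited files are 6 lists, 1 per state and mark, of chromosome, start, end and peak name, and they hold no count, score or signal. Each list was assigned by the state and mark in its label. Depth is unknown, and a deeper library or a looser threshold gives longer lists and fewer gaps.

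Overlapping and touching H3K27ac peaks were joined with Python 3.11.15 and numpy 2.4.6, and covered bases were counted per state. Coordinates are 1-based on mm9 (NCBIM37). The start site of each of 22350 protein-coding genes was its 5′ end in GENCODE M1, on chromosomes 1 to 19 and X. With 1 list per state, no test was made, and values were set beside all 14972 regions with a peak in every state or the 13838 of these under 10 kb. The members, gene lists and named domains were chosen with earlier results of these data known. Named domains were the 20 widest (1 of them is not reported here), the 5 highest and 5 lowest over ESCs in each EPSC and in both, the 3 on each side of the width limit, and those holding the start site of a listed gene. Listed genes by body or nearest domain, contrasts between EPSCs, groups of neighbouring domains, 300 base windows, the joined letters, the promoters shown and the domains mapped were chosen after seeing the data. Alternatives were other width limits, gaps of 1 kb joined, at least 10% covered in each state, peaks of at least 500 bp, lists of equal covered bases, other limits for a lower covered length and other start site windows. The code was tested on simulated data, with 0 errors in 200 simulated chromosomes and 167 planted regions. Figures were drawn with matplotlib 3.10.9.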

Additional observations from a re-analysis of the deposited data

How the results depend on the processing

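No paired analysis was possible because each state and mark has 1 peak list, and for the same reason no sample could be left out. Of 110 values recomputed under alternatives, 73 stayed within a set limit and 37 moved. The limit was 1.5 times a count or, for a share, a 95% exact binomial interval over domains or start sites (counting error only). Covered shares and bases per 100 ESC bases are ratios of bases and not shares of domains. For them the interval served as a fixed limit and does not measure their error. There were 1722 domains at 8 kb, 441 at 15 kb and 1932 with peaks joined over gaps of 1 kb. With the joined gaps, covered shares were 89.6% in ESCs, while D-EPSCs had 43.7% and L-EPSCs 40.0%, which is 48.8 and 44.7 bases per 100 ESC bases, and H3K4me1 covered 83.4%, 74.9% and 72.2%. At 15 kb, D-EPSCs covered 57.7% and L-EPSCs 54.1%, and with at least 10% covered in each state D-EPSCs covered 57.6%, or 59.3 per 100 ESC bases. Domains at or below 50% of the ESC length numbered 778 at 8 kb, 161 at 15 kb and 1089 with joined gaps in D-EPSCs, and 879, 193 and 1213 in L-EPSCs. A limit of 75% gave 864 and 910, and a limit of 25% gave 160 and 204. Domains longer than in ESCs numbered 123 and 85 at 8 kb and 27 and 17 at 15 kb in D-EPSCs and L-EPSCs, and 77 with joined gaps in L-EPSCs. H3K4me1 within 500 bp of the start lay at 54.7%, 83.8% and 88.7% of start sites in domains, and within 1 kb at 84.03%, 96.6% and 97.9%, in ESCs, D-EPSCs and L-EPSCs. With all annotated genes, 35.2% of domains held a start site. With lists of equal covered bases, which kept 3726 ESC, 13676 D-EPSC and 26966 L-EPSC peaks, there were 1019 domains, with 54.6 and 54.4 bases per 100 ESC bases, and 490 (D-EPSCs) and 480 (L-EPSCs) were at or below 50%, which turned the order of the EPSCs. The widest peaks of each list were kept there, which favours long peaks. Most ESC peaks were dropped in this way and no L-EPSC peak was.

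Of the 140 named domains, 31 were no domain with lists of equal covered bases and 18 with peaks of at least 500 bp. With joined gaps, which made the domains themselves wider, 10 values changed sides against ESCs. D-EPSC length was then below ESC length near Etv5 (98.1%), near Zfp281 (77.1%), at Jarid2 (98.0%), near Tet2 (74.8%), at Spred2 (67.6%) and in a domain near Jarid2 (88.4%), as did L-EPSC length in the Hist1h3e domain (88.1%). D-EPSC length was above it in the Hist1h4h domain (111%), in another domain near Etv5 (113%) and near Spry2 (111%). With lists of equal covered bases, 8 other values changed sides and were above ESC length, in D-EPSCs near Gm17697 (107%), at Tet2 (192%), at Hspa8 (104%) and near Kdm5b (123%), and in L-EPSCs at Tet2 (153%), Sox2 (119%), Spred2 (138%) and near Jarid2 (107%). The lists of equal covered bases had dropped the shorter ESC peaks and no L-EPSC peak. The cause was not tested.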

Other observations

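Domains over histone gene starts had long EPSC coverage. The Hist1 genes on chromosome 13, which encode core and linker histones, had 31 start sites in 7 domains. D-EPSCs covered 89.1% to 129% of the ESC length in them and exceeded ESCs in 5 of 7, and L-EPSCs covered 72.3% to 128% and exceeded ESCs in 3. The domain with the most start sites of all, 9 from Hist1h1c to Hist1h1a (chr13:23828764-23857943), covered 26.7 kb in ESCs, while D-EPSCs had 29.2 kb and L-EPSCs 27.5 kb. It was 1 unbroken peak in D-EPSCs and 3 peaks in ESCs. The Hist1h3e domain covered 12.9 kb, 16.6 kb and 16.5 kb. Another 4 domains without a start site had a Hist1 gene as the nearest, and they varied more. The D-EPSC share was 4.12%, 18.3%, 69.6% and 128% of the ESC length in them, and the L-EPSC share 53.1%, 29.3%, 99.4% and 99.6%. Over all 11, D-EPSCs exceeded ESCs in 6 and L-EPSCs in 3. Hist1 genes are near-identical copies, so the placement of reads among them is uncertain.

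Domains also lay close together. At a gap of at most 10 kb, 243 of the 1134 domains fell into 113 groups of neighbours, up to 5 in a group. The group of 5 lay in the Hist1 cluster and spanned 96.5 kb. The group at Usp7, a deubiquitinase gene, had 4 domains over 61.1 kb, of which ESCs covered 53.3 kb, D-EPSCs 33.8 kb and L-EPSCs 22.0 kb. The Klf2 group had 3 domains over 69.6 kb, with 67.5 kb, 54.9 kb and 42.6 kb. A group of 3 near Sik1, a salt-inducible kinase gene, covered 47.2 kb, 31.1 kb and 43.9 kb, so L-EPSCs kept more of it than D-EPSCs.

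Chromosome X held 1 domain among 156 regions with a peak in every state (0.641%), against 7.57% over all chromosomes and 5.47% to 9.66% over the autosomes. It was nearest to Glod5 and covered 9.29 kb (ESCs), 3.58 kb (D-EPSCs) and 1.24 kb (L-EPSCs).

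The domains took up different parts of the lists. They held 15.9% of the ESC, 21.6% of the D-EPSC and 26.2% of the L-EPSC bases under H3K27ac, and 2.26%, 10.3% and 13.3% of the peaks. The body of Cdh1, the E-cadherin gene, held 2 domains. The domain nearer to the start covered 19.4 kb, 13.7 kb and 12.1 kb, and the other covered 22.0 kb, 6.92 kb and 2.76 kb. A domain 35.4 kb from the start of Eed, a gene of Polycomb repressive complex 2, covered 10.6 kb, 4.94 kb and 0.57 kb.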
